A study of Homo sapiens with 27 samples.

Results

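EA.hy926 endothelial cells given conditioned medium (CM) from young mesenchymal stromal cells (MSCs) for 48 h were compared with control EA.hy926 cells by RNA sequencing. The comparison took replicates 2 to 4 of each group, 6 of the 27 libraries of the study, with the replicate number as a block. EA.hy926 is a hybrid of an umbilical vein endothelial cell and a lung carcinoma cell of the A549 line. The medium came from ASC52telo, a line of adipose MSCs immortalised with the telomerase gene TERT, and was mixed 1:1 with the endothelial culture medium. Young MSCs had received no mitomycin C, whereas the senescent MSCs used in other groups had 1.5 µg/mL of this DNA crosslinker for 18 h, followed by 10 days in culture. Control cells are labelled only as control, and both groups carry the genotype label wt and come from the same sequencing run. Matrix from young MSCs (young ECM), left on the dish after the cells were lysed, and CM from senescent MSCs were used here as comparison groups, with the same 48 h exposure and 3 libraries each.

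Each group rests on 1 endothelial line and 1 MSC line, and the labels do not say whether the replicates came from separate cultures, so that p-values describe library-to-library spread, part of which may be technical. No medium kept without MSCs is among the groups analysed here, and products of the MSCs cannot be told apart from the replacement of part of the medium. Library totals ran from 69883356 to 105949470 counts in the 6 libraries, and those of young CM, at most 76843793, were below those of control, at least 90449654; the part of this depth difference in the results was not tested. Replicate 1 of each group was kept apart because it carried stromal RNA: the collagen I gene COL1A1 was measured at 4527 CPM (read counts relative to library size, scaled between libraries by TMM) in young CM and at 4034 CPM in control, and TERT at 798 and 633 CPM. In replicates 2 to 4 COL1A1 lay between 5.52 and 9.44 CPM in young CM and between 5.50 and 6.18 CPM in control.

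Endothelial markers were present in all 6 libraries. PECAM1, an endothelial adhesion receptor, was at 575, 518 and 635 CPM in young CM and at 404, 465 and 630 CPM in control. Of the 33 endothelial identity genes, 30 passed the filter on low counts, and the list took 0.457 to 0.545% of counts in young CM and 0.420 to 0.586% in control. VWF, the von Willebrand factor of endothelial granules, was low, with means of 4.67 CPM in young CM and 5.20 CPM in control. The stromal identity list took 0.0534 to 0.0690% of counts in young CM and 0.0591 to 0.0738% in control, so the ranges overlapped. NT5E took the most counts of this list, with means of 348 CPM in young CM and 350 CPM in control. The share therefore says little about the low genes of the list. By gene, 19 of 25 stromal genes tested had higher fitted values in young CM than in control. Of 10 haematopoietic genes 3 passed the filter, none of them with an unadjusted p under 0.05. These are bulk libraries, in which fewer cells of a type and less RNA per cell cannot be told apart.

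MSCs act on vessels largely through what they secrete, which includes growth factors, cytokines, proteases and their inhibitors, matrix proteins and vesicles. Endothelial cells answer such signals through receptor kinase, Notch, NF-kB, TGF-beta and other pathways. Their own products in turn set vessel tone, clotting, sprouting and the traffic of leukocytes.

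Between young CM and control, 6 genes passed the threshold. Of 18015 genes tested with edgeR's quasi-likelihood test, 5 rose and 1 fell in young CM at an adjusted p under 0.05, together 0.0333% of the genes tested. DMBT1, TNFSF15, APLN, FAM167B and DIRC3-AS1 rose, and RELN fell. Without the replicate block edgeR made 0 calls (846 genes had an unadjusted p under 0.05), whereas DESeq2 with the block made 64, of which 31 were higher and 33 lower. The balance of directions was also different when only the 2 groups were fitted, with 26 higher and 32 lower, and with no filter on low counts, with 132 higher and 208 lower. Leaving out 1 library left 1 call without young CM replicate 2, 0 without young CM replicate 3 (1240 genes at an unadjusted p under 0.05), and 3 without young CM replicate 4. With a control library left out, 5 calls were made without replicate 3 and 3 without either of the other replicates. The all-gene median log2 fold change was 0.01. In the fit with the block, 951 genes (5.28%) were higher and 641 (3.56%) lower at an unadjusted p under 0.05, and these shares are the background for the list counts given further on. That background of 1592 genes moved with single libraries, to 586 without young CM replicate 2 and 3288 without young CM replicate 4, and to 443 when replicate 2 was left out of every group.

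DMBT1 (ENSG00000187908.20, chr10:122560665-122643736, plus strand, GRCh38), a secreted scavenger receptor glycoprotein of mucosal surfaces, had the highest fold change of the 6. It was at 1.41, 2.03 and 2.89 CPM in young CM replicates 2, 3 and 4, and at 0.442, 0.247 and 0.606 CPM in control. All 3 young CM libraries lay above all 3 control libraries, at counts of 103 to 215 reads against 24 to 57 reads. The log2 fold change was 2.33 ± 0.28 (SE; adjusted p = 0.00477). In replicate 1 the order was the other way, with 1.48 CPM in young CM and 1.81 CPM in control.

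TNFSF15 (ENSG00000181634.8, chr9:114784635-114806126, minus strand) encodes a TNF-family cytokine that endothelial cells make and that restrains endothelial growth. Its level was 14.5, 16.7 and 12.8 CPM in young CM and 4.08, 8.59 and 3.66 CPM in control. The groups did not overlap, and the log2 fold change was 1.50 ± 0.21 (adjusted p = 0.0288). Control replicate 3 stood above the other 2 control libraries. Replicate 1 had 2.43 CPM in young CM and 1.51 CPM in control.

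APLN (ENSG00000171388.12, chrX:129645259-129654937, minus strand) encodes apelin, a peptide ligand made by endothelial tip cells. It was measured at 381, 344 and 437 CPM in young CM and at 233, 157 and 227 CPM in control, without overlap. Its log2 fold change was 0.94 ± 0.15 (adjusted p = 0.0416), the smallest of the 6 in size. Replicate 1 had 316 CPM in young CM and 246 CPM in control.

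FAM167B (ENSG00000183615.6, chr1:32247233-32248856, plus strand) stood at 3.07, 1.90 and 1.23 CPM in young CM and at 0.812, 0.690 and 0.585 CPM in control, with a log2 fold change of 1.56 ± 0.24 (adjusted p = 0.0416). The lowest young CM library was above the highest control library, and the young CM libraries spread more than the control ones. DIRC3-AS1 (ENSG00000233143.2, chr2:217282739-217336120, plus strand), a long noncoding RNA gene, had 1.54, 1.78 and 1.57 CPM in young CM and 0.596, 0.947 and 0.500 CPM in control. Its log2 fold change was 1.31 ± 0.20 (adjusted p = 0.0416), again without overlap. The strand setting of the counting is not given in the sources used here. Reads of an antisense gene and its partner therefore cannot be told apart where their exons share bases. Whether DIRC3-AS1 shares bases in the annotation used for counting is not known, because its release is not given either. FAM167B had 5.20 CPM in young CM and 3.10 CPM in control in replicate 1, and DIRC3-AS1 0.765 and 0.965 CPM.

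RELN (ENSG00000189056.15, chr7:103471784-103989516, minus strand) encodes reelin, a large secreted glycoprotein known for guiding neurons through lipoprotein receptors. It was at 3.60, 3.48 and 2.80 CPM in young CM and at 11.7, 9.53 and 8.47 CPM in control. Every young CM library lay well below every control library. The log2 fold change was -1.56 ± 0.18 (adjusted p = 0.00477). In replicate 1 both levels were low, at 1.68 CPM in young CM and 2.12 CPM in control.

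**Figure D1:**
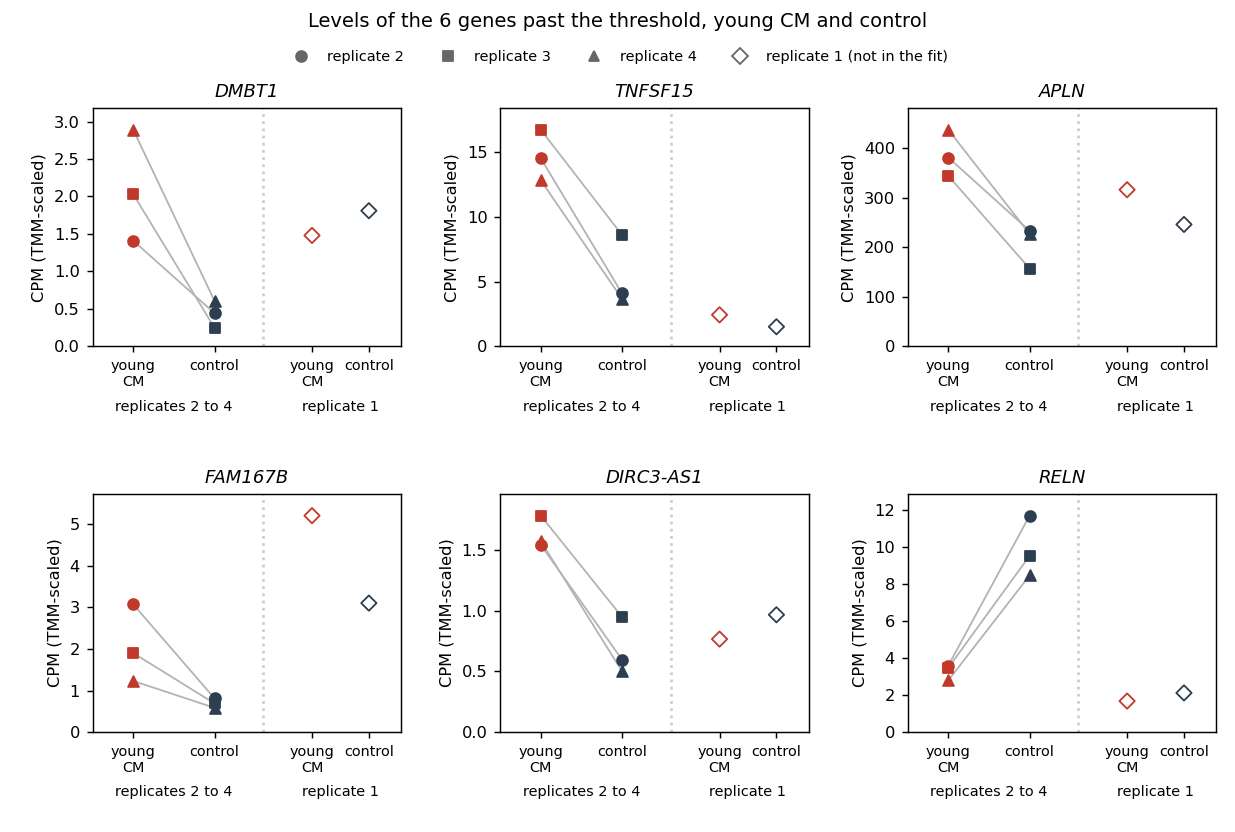
Each panel plots the TMM-scaled CPM of 1 gene by library, with young CM left of control, lines joining libraries of the same replicate number and open diamonds for replicate 1, which was not fitted. In replicates 2 to 4 the groups did not overlap for any of the 6 genes, with APLN, for example, at 344 to 437 CPM in young CM and 157 to 233 CPM in control.

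The promoters of 5 of the 6 genes were in the RefSeq table for GRCh38.p14, and 4 are shown because these genes carry the comparison. The entry for TNFSF15 lies wholly inside the gene span given above and is not shown. That of DMBT1 begins before its gene span, but its annotated RefSeq start lies inside that span. The RELN entry, with its RefSeq start, lies wholly before the RELN gene span on the minus strand. Each of the 4 runs from 250 bases before to 50 bases after the RefSeq start, on the gene's own strand. Capitals mark matches, on either strand, to any of 5 motifs. The motifs searched were the TATA box TATAAA, the AP-1 motif TGANTCA, the ETS motif CCGGAA, the RBPJ motif GTGGGAA and the E-box CACGTG. No 2 matches overlapped in these 4 promoters.
DMBT1: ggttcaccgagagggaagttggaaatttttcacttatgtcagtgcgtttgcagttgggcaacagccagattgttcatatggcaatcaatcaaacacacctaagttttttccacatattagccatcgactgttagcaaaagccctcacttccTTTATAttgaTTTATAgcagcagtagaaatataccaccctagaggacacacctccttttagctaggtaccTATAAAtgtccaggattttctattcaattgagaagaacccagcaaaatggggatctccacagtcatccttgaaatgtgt
APLN: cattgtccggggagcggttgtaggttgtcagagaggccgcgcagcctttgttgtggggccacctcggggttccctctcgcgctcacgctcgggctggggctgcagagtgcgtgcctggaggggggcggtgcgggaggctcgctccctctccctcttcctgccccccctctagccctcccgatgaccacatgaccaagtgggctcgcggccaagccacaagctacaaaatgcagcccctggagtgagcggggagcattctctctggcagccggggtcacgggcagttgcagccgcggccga
FAM167B: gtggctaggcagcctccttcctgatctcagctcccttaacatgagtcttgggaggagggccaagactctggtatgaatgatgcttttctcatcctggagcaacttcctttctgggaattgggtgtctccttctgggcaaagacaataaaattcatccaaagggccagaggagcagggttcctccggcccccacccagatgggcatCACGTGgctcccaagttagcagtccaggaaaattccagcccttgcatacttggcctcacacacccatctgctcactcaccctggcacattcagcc
RELN: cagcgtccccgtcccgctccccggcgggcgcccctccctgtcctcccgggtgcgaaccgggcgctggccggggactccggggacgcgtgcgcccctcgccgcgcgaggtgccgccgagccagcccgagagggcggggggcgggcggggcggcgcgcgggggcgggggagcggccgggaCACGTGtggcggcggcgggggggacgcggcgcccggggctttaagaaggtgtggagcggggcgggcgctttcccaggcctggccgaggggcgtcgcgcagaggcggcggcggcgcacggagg
They lie at chr10:122560504-122560803 (plus strand) for DMBT1, chrX:129654907-129655206 (minus strand) for APLN, chr1:32246972-32247271 (plus strand) for FAM167B and chr7:103989609-103989908 (minus strand) for RELN.

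The promoters differed in base composition. RELN had 83.3% G and C and 52 CpG dinucleotides in 300 bases, APLN 68% and 22, FAM167B 54% and 2, and DMBT1 40.7% and 3, beside medians of 58.7% and 14 over 35116 promoters of that length. DMBT1 held 3 TATA box matches, and TATAAA was found in 11.5% of all promoters. The match nearest the RefSeq start lay 29 bases before it, inside the gene span given above. RELN and FAM167B held 1 E-box each, 72 and 45 bases before the RefSeq start (7.26% of all promoters). APLN held none of these letters in this window. The AP-1 motif occurs in 7.71% of all promoters, the ETS motif in 17.2% and the RBPJ motif in 6.25%. None of them was in the 4 shown, but the TNFSF15 entry held an AP-1 match, TGAGTCA, 120 bases before its start. A match describes letters and is not evidence that a factor binds there.

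Among protein-coding genes whose mean reached 5 CPM in 1 group, with no overlap between groups and the same sign in all 3 pairs, the 15 highest and 15 lowest fold changes were taken. TNFSF15, APLN and RELN were among them, and the other 27 did not pass the threshold. For reference, 623 genes (3.46%) had every young CM library above every control library, and 609 (3.38%) had every one below.

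Several of the genes with higher values encode signalling or vessel-active proteins. HES1, the Notch-responsive transcriptional repressor, was at 17.6, 11.8 and 7.84 CPM in young CM and at 5.85, 4.19 and 4.65 CPM in control (log2 fold change 1.32 ± 0.28, adjusted p = 0.165). CCL2, the monocyte chemoattractant, was at 37.3, 33.7 and 22.5 CPM in young CM and at 15.5, 21.8 and 13.9 CPM in control (0.90 ± 0.16, adjusted p = 0.0733). KRT7, a keratin of simple epithelia that this hybrid line expresses, was at 2714, 2010 and 1986 CPM in young CM and at 1367, 1074 and 1348 CPM in control (0.85 ± 0.17, adjusted p = 0.145). In each of these 3 genes the groups were apart, and replicate 4 had the smallest ratio for HES1 and KRT7. DUSP1, a phosphatase that switches off MAP kinases, averaged 87.1 ± 9.3 CPM in young CM and 53.7 ± 7.2 CPM in control (SD, n = 3 each).

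The remaining higher genes have varied roles. ALDH1A1, which makes retinoic acid, had a log2 fold change of 0.79 ± 0.15, PDE4B, which degrades cAMP, 0.70 ± 0.14, and NOX4, an oxidase that makes hydrogen peroxide, 0.68 ± 0.17. MYLK2, a myosin light chain kinase, stood at 0.77 ± 0.17, the annexin ANXA3 at 0.74 ± 0.19 and the histone chaperone NAP1L4 at 0.99 ± 0.34. SOX7, a transcription factor of endothelial cells, had 0.67 ± 0.21, DDIT4, an inhibitor of mTORC1, 0.67 ± 0.23, and FAM24B 0.70 ± 0.20. Part of the exonic length of the last 3 is shared with another gene: 39.4% of SOX7 with PINX1, 41.2% of DDIT4 with DDIT4-AS1 and 28.0% of FAM24B with CUZD1, so their counts are uncertain. Adjusted p-values of these 9 genes ran from 0.111 for ALDH1A1 to 0.557.

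Of the 15 lower genes, 3 encode enzymes or inhibitors that act on matrix or in proteolysis, none of them past the threshold. SERPINB2, an inhibitor of plasminogen activators, was at 37.0, 43.9 and 35.4 CPM in young CM and at 68.8, 99.8 and 87.8 CPM in control (log2 fold change -1.11 ± 0.19, adjusted p = 0.0733). LOX, which crosslinks collagen, was at 38.6, 33.8 and 39.6 CPM in young CM and at 82.0, 58.3 and 81.9 CPM in control (-0.96 ± 0.16, adjusted p = 0.0697). MMP1, the interstitial collagenase, was at 2251, 2339 and 2296 CPM in young CM and at 3799, 4209 and 3676 CPM in control (-0.74 ± 0.12, adjusted p = 0.0697). Within young CM the 3 MMP1 libraries differed little, and all control libraries were higher. The exons of SERPINB2 overlap SERPINB10 on the same strand over 19.9% of their length.

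The other lower genes have varied roles. SLC7A11, the cystine transporter, was at 86.3, 91.3 and 126 CPM in young CM and at 157, 160 and 206 CPM in control (-0.77 ± 0.14, adjusted p = 0.0991). ERRFI1, a feedback inhibitor of the EGF receptor, had a log2 fold change of -0.75 ± 0.15, PDE3A, a phosphodiesterase of cAMP and cGMP, -0.79 ± 0.20, and MTSS1, which bends membranes at actin-rich edges, -0.82 ± 0.25. TOX, an HMG-box nuclear protein, was close to level within each group, at 13.6, 13.8 and 14.3 CPM in young CM and 24.2, 24.3 and 24.1 CPM in control (-0.78 ± 0.15, adjusted p = 0.130). PLVAP, which forms the diaphragms of endothelial openings, had -0.77 ± 0.30, the zinc finger factor HIVEP2 -0.92 ± 0.22, MALL -0.88 ± 0.20, SH3TC2 -0.80 ± 0.17, NAV3 -0.77 ± 0.20 and MAP3K7CL -0.71 ± 0.18.

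**Figure D2:**
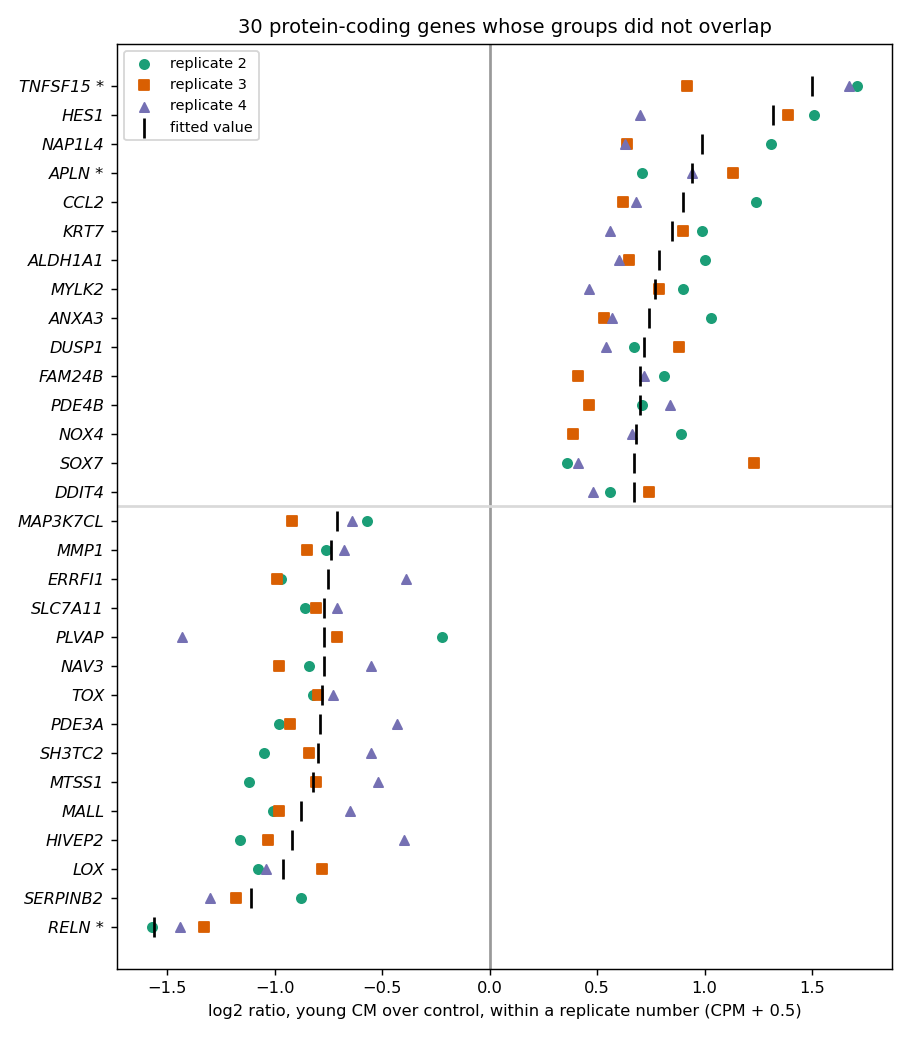
The plot gives, for 30 protein-coding genes, the log2 ratio of young CM over control within each replicate number (symbols; CPM plus 0.5) and the fitted log2 fold change (black bars), with asterisks on genes past the threshold. Every ratio has the sign of its gene's group because the genes were chosen so; for SLC7A11 and TOX the 3 ratios lay close together, whereas for PLVAP they ran from -1.43 to -0.22.

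**Figure D3:**
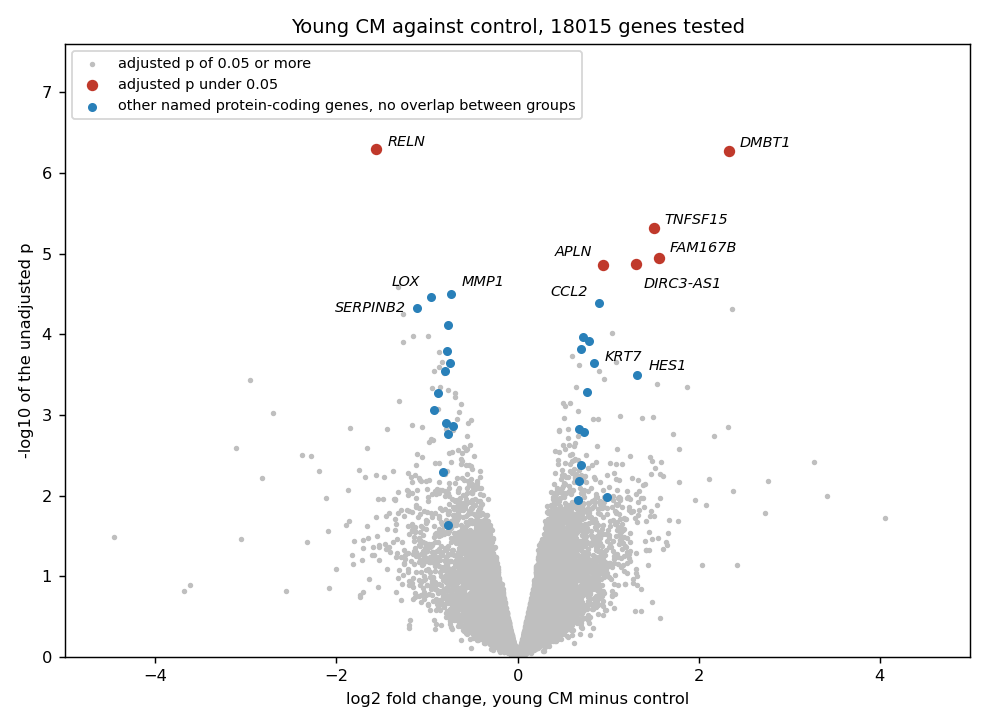
Each point is 1 of 18015 genes, with the log2 fold change of young CM over control on the x axis and -log10 of the unadjusted p on the y axis; 2 genes lie outside the x range. The 6 genes past the threshold stand above the rest, with LOX, MMP1, CCL2 and SERPINB2 among those just under them.

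Secreted signals were looked at next, starting with cytokines. Of 19 chemokine and cytokine genes tested, 8 were higher and 0 lower at an unadjusted p under 0.05, with a list median log2 fold change of 0.42, and TNFSF15 alone rose past the adjusted threshold. IL1A and IL1B, the interleukin-1 ligands, had log2 fold changes of 0.43 ± 0.17 and 0.48 ± 0.18. LIF, a cytokine of the interleukin-6 family, had -0.50 ± 0.30. Beside this, the stromal list had a median of 0.30, with 19 of 25 values above 0; CXCL12 is a member of both lists. The part of stromal transcripts in these small differences was not tested.

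Endothelial ligands gave no common direction, with 4 of 25 higher and 3 lower at an unadjusted p under 0.05 and a median of -0.01. EDN1, the vasoconstrictor endothelin-1, was at 156, 162 and 153 CPM in young CM and at 105, 119 and 114 CPM in control (0.50 ± 0.14, adjusted p = 0.457). PDGFB, which recruits pericytes, stood at 17.2, 13.1 and 24.9 CPM in young CM and at 14.3, 6.98 and 12.9 CPM in control (0.73 ± 0.27), so its libraries overlapped. AREG, an EGF receptor ligand, was at 2.21, 1.73 and 1.36 CPM in young CM and at 3.54, 3.93 and 3.10 CPM in control (-0.98 ± 0.19, adjusted p = 0.107). KITLG, the stem cell factor, had -0.61 ± 0.19, and CCN1, a matricellular protein and YAP target, 0.40 ± 0.14.

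Among 17 sprouting and tip cell genes, 5 were higher and 0 lower at an unadjusted p under 0.05, although the list median was 0.02. Beside APLN these included CXCR4, the receptor of CXCL12, at 1.69, 1.30 and 1.53 CPM in young CM and 1.18, 1.05 and 0.734 CPM in control (0.64 ± 0.20). ADM, the vasodilator adrenomedullin, was at 27.6, 24.3 and 25.4 CPM in young CM and 20.6, 17.5 and 20.8 CPM in control (0.42 ± 0.13). Both genes were without overlap and at an adjusted p of 0.555. PLXND1, a semaphorin receptor, had the lowest value of the list, -0.49 ± 0.27.

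Vasoactive and clotting genes went both ways. Of 15 vasoactive genes, 2 were higher and 4 lower at an unadjusted p under 0.05, the lowest being NPR1, a natriuretic peptide receptor barely detected at means of 0.0135 CPM in young CM and 0.0632 CPM in control. NOS3, the endothelial nitric oxide synthase, was at 314, 215 and 213 CPM in young CM and at 610, 305 and 383 CPM in control (-0.77 ± 0.30, adjusted p = 0.557), and its groups overlapped. In the coagulation and fibrinolysis list, 3 of 19 were higher and 2 lower at an unadjusted p under 0.05, with a median of -0.03. PLAU, the urokinase activator of plasminogen, was at 270, 245 and 264 CPM in young CM and at 214, 172 and 194 CPM in control (0.45 ± 0.12). PLAT, the tissue plasminogen activator, had -0.53 ± 0.20, while TFPI and TFPI2, inhibitors of clotting proteases, had 0.31 ± 0.12 and 0.51 ± 0.13.

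Prostaglandin genes were the list with the lowest median among those with at least 10 genes tested. Of 10 tested, 5 were lower and 0 higher at an unadjusted p under 0.05, with a median of -0.33. PTGS1, the constitutive cyclooxygenase, was at 2.78, 2.04 and 2.76 CPM in young CM and at 4.18, 5.00 and 4.97 CPM in control (-0.88 ± 0.21, adjusted p = 0.287). PTGS2, the inducible cyclooxygenase, was at 2.78, 3.38 and 2.91 CPM in young CM and at 3.67, 5.67 and 3.88 CPM in control (-0.51 ± 0.16, adjusted p = 0.557). PLA2G4C, a phospholipase that releases their substrate, had -0.72 ± 0.25. In all 3 genes every young CM library was below every control library. The highest and lowest members, the transporter SLCO2A1 (0.50 ± 0.43) and the prostaglandin D synthase PTGDS (-1.08 ± 0.55), were both under 0.2 CPM on average. The list took 0.00455, 0.00496 and 0.00650% of counts in young CM and 0.00694, 0.00741 and 0.00723% in control.

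The list of matrix metalloproteinases and TIMPs, their inhibitors, took a lower share of counts in young CM, at 0.511, 0.474 and 0.521% against 0.709, 0.647 and 0.654% in control. An exact permutation test of 3 against 3 libraries gave p = 0.10 (2-sided), the smallest it can give, and 0.75 after adjustment over 45 lists. Among the 45 list shares tested, 3 reached that smallest p. MMP1, already chosen from these data, took the most counts of the list in both groups. The share is therefore not a result apart from MMP1. By gene, 4 of 16 were lower and 1 higher at an unadjusted p under 0.05, 9 had values above 0, and the median was 0.07. The inhibitors TIMP1, TIMP2 and TIMP3, named after their values were seen, had 0.31 ± 0.18, 0.10 ± 0.23 and 0.20 ± 0.19, that of TIMP2 being -0.14 without control replicate 3. MMP10, or stromelysin-2, was at 0.887, 1.09 and 1.33 CPM in young CM and at 1.54, 1.83 and 3.25 CPM in control (-0.95 ± 0.21, adjusted p = 0.197), and MMP16, a membrane-bound protease, had -0.42 ± 0.17. MMP24 (-1.01 ± 0.32) and MMP7 (0.99 ± 0.43), the lowest and highest of the list, were under 0.5 CPM in every library.

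Keratins and epithelial junction genes were read as 1 list. It took 0.456, 0.362 and 0.378% of counts in young CM and 0.267, 0.220 and 0.265% in control, again without overlap (exact permutation test, 2-sided, p = 0.10; 0.75 adjusted over 45 lists). KRT7, already chosen from these data, took the most counts of this list, followed by KRT18. KRT7 averaged 2236 CPM in young CM and 1263 CPM in control, and KRT18 1083 and 686 CPM. The share is therefore not a result apart from KRT7. Of 12 tested genes, 6 were higher and 1 lower at an unadjusted p under 0.05, and none passed the adjusted threshold. KRT18 and KRT8, the paired keratins of simple epithelia, had log2 fold changes of 0.66 ± 0.16 and 0.57 ± 0.15, and both have many processed copies that could share reads. KRT86, the highest of the list at 0.96 ± 0.46, averaged 0.204 CPM in young CM and 0.106 CPM in control, and its groups overlapped. CLDN4, an epithelial tight junction protein, was the lower one at -1.21 ± 0.41, with means of 0.151 CPM in young CM and 0.362 CPM in control.

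Growth factor signalling was read from its feedback genes. Of 24 immediate early and MAPK feedback genes, 1 was higher, DUSP1, and 3 were lower at an unadjusted p under 0.05. SPRY2 and SPRED1, inhibitors of the Ras to ERK cascade, had log2 fold changes of -0.47 ± 0.15 and -0.30 ± 0.13. EGR1, an early growth response factor, was at 1.32, 0.876 and 1.18 CPM in young CM and at 2.60, 1.31 and 1.23 CPM in control (-0.52 ± 0.22), so its groups overlapped. NF-kB targets had 2 of 14 higher and 2 lower. TRAF1, an adaptor of TNF receptors, had -0.86 ± 0.18 and BIRC3, an inhibitor of apoptosis, -0.68 ± 0.27, whereas NFKBIA, which encodes an inhibitor of NF-kB itself, had 0.41 ± 0.14.

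Metabolic lists were small in their differences. Of 20 genes of the NRF2 and oxidative stress list, 4 were lower and 0 higher at an unadjusted p under 0.05, with a median of -0.19. TXNRD1, a thioredoxin reductase, was at 668, 736 and 934 CPM in young CM and at 1015, 1159 and 1302 CPM in control (-0.55 ± 0.15, adjusted p = 0.464). The aldo-keto reductases AKR1B10 and AKR1C1 had -0.57 ± 0.16 and -0.58 ± 0.20, and AKR1C1 has close copies that could share its reads. Of 29 genes of cholesterol synthesis and uptake, 5 were higher and 0 lower, with a median of 0.18. INSIG1, a sterol-regulated brake on the pathway, was at 26.3, 23.5 and 33.2 CPM in young CM and at 18.6, 19.4 and 20.9 CPM in control (0.51 ± 0.12, adjusted p = 0.258). SCD, which desaturates fatty acids, had 0.62 ± 0.17, MYLIP, which marks the LDL receptor for breakdown, 0.45 ± 0.16, and ABCA1, a cholesterol exporter, 0.75 ± 0.29. ACACA, an acetyl-CoA carboxylase and the lowest of the list, had -1.24 ± 0.61, with overlapping groups.

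Of 36 interferon response genes, 4 were higher and 0 lower at an unadjusted p under 0.05, with a median of 0.11. IFI27, an interferon-induced mitochondrial protein, was the highest, at 9.39, 6.16 and 0.738 CPM in young CM and 0.397, 5.13 and 1.47 CPM in control (1.29 ± 1.13). Its libraries spread widely within both groups and overlapped, and without replicate 2 its log2 fold change was -0.25.

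Proliferation and identity genes showed few differences. Of 46 cell cycle genes, 0 were higher and 0 lower at an unadjusted p under 0.05 in edgeR, and 0 passed the adjusted threshold, with a median of -0.02. The p53 target list had 2 of 26 higher, among them the stress cytokine GDF15 at 0.36 ± 0.14, and 0 lower. Of the 30 endothelial identity genes tested, 3 were higher and 2 lower. The higher ones were SOX7 at 0.67 ± 0.21, EGFL7, a secreted vessel protein, at 0.43 ± 0.15, and CD34, a progenitor and endothelial surface protein, at 0.23 ± 0.11. The lower ones were NOS3 and PLVAP, each at -0.77 ± 0.30. In the WNT list 3 of 19 were lower and 0 higher, with WNT16, a WNT ligand, at -1.05 ± 0.30 and LGR4, an R-spondin receptor, at -0.62 ± 0.18. TGF-beta and BMP targets had 1 of 23 higher and 2 lower, and YAP targets 1 of 17 higher and 1 lower.

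**Figure D4:**
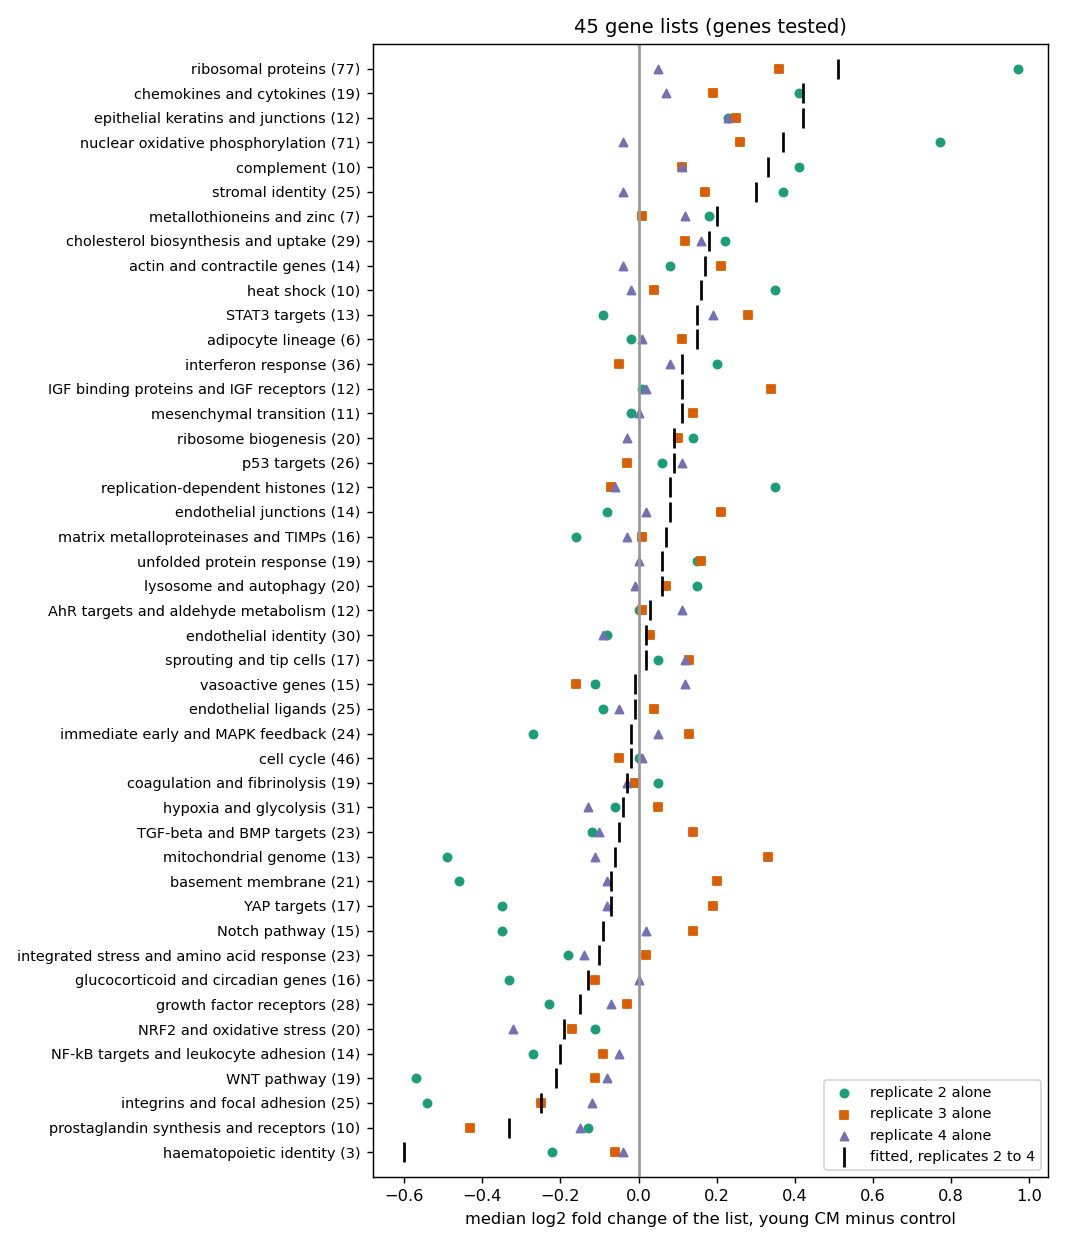
Black bars give the median log2 fold change of each of 45 gene lists in young CM minus control, and symbols the median within each replicate number (CPM plus 0.5, which draws low genes towards 0); the number of genes tested is in brackets. The ribosomal protein list is highest at 0.51, but its medians were 0.97, 0.36 and 0.05 in replicates 2, 3 and 4.

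Ribosomal protein genes and nuclear genes of oxidative phosphorylation had higher median values in young CM in replicates 2 and 3. Their medians in replicate 4 were 0.05 and -0.04, and genes of the mitochondrial genome had a fitted median of -0.06. Of 77 ribosomal protein genes, 43 were higher and 0 lower at an unadjusted p under 0.05, and 0 passed the adjusted threshold. They took 12, 12.2 and 8.03% of counts in young CM replicates 2, 3 and 4, and 6.98, 10.3 and 7.59% in control, and the groups overlapped (exact permutation test that ignores the pairing, 2-sided, p = 0.20). Within each replicate number the share was higher in young CM. RPL26, RPL34 and RPL37, proteins of the large ribosomal subunit, had log2 fold changes of 0.79 ± 0.29, 0.77 ± 0.28 and 0.69 ± 0.25. Of 71 nuclear genes of oxidative phosphorylation, 15 were higher and 0 lower, with a median of 0.37 and medians of 0.77, 0.26 and -0.04 in replicates 2, 3 and 4. ATP5F1E, a subunit of ATP synthase, had 0.65 ± 0.28 and COX7B, a subunit of cytochrome oxidase, 0.62 ± 0.26. The 13 genes of the mitochondrial genome took 2.32, 2.24 and 2.59% of counts in young CM and 3.20, 1.88 and 2.61% in control, and MT-ND4L, a subunit of complex I, had -0.65 ± 0.31.

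These shifts moved with gene length. When 12900 protein-coding genes were ranked by exonic length in GENCODE 29 and split into 5 groups of 2580, the median log2 fold change was 0.16 in the shortest group and 0.04, -0.02, -0.08 and -0.14 in the longer ones. Within replicate 2 it was 0.23 in the shortest and -0.25 in the longest group, within replicate 3 0.11 and -0.14, and within replicate 4 -0.03 and 0.00. Integrin and focal adhesion genes had a median of -0.25, with 3 of 25 lower and 0 higher at an unadjusted p under 0.05. ITGA6, a laminin receptor subunit, was at 184, 189 and 293 CPM in young CM and at 297, 305 and 356 CPM in control (-0.52 ± 0.19). Among members of other lists, FLNA, an actin crosslinker, had -0.50 ± 0.28, and FN1, the matrix protein fibronectin, -0.64 ± 0.28. NOTCH2, a Notch receptor, had -0.53 ± 0.34, and HSPG2, the basement membrane proteoglycan perlecan, -0.42 ± 0.33. The groups overlapped for each of them, and FLNA, FN1 and NOTCH2 were the lowest of the actin, mesenchymal transition and Notch lists. Those lists had medians of 0.17, 0.11 and -0.09, and the basement membrane list -0.07. In the same order, 9 of 14, 6 of 11, 6 of 15 and 7 of 21 tested genes had values above 0. FLNA, FN1, NOTCH2 and HSPG2 were picked for mention after their values were seen. The part of gene length in these differences was not tested.

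**Figure D5:**
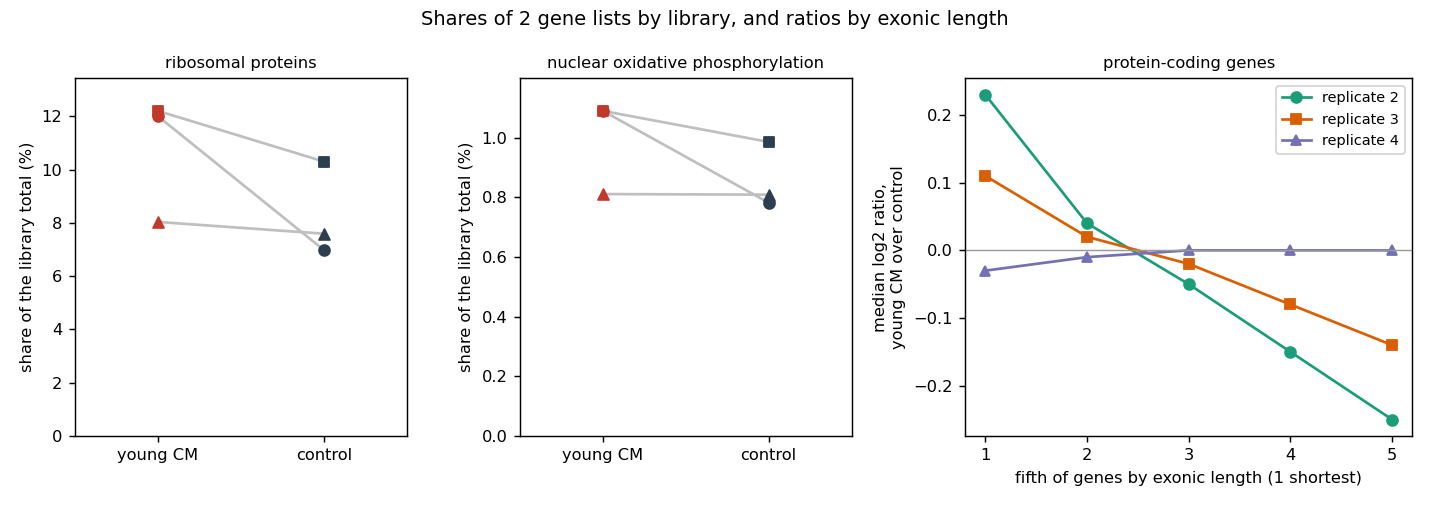
The left and middle panels give the share of counts of ribosomal protein genes and of nuclear oxidative phosphorylation genes by library, young CM left of control, with lines joining the same replicate number; the right panel gives the median log2 ratio of protein-coding genes by group of exonic length within each replicate. Ribosomal shares in replicate 4 were 8.03% in young CM and 7.59% in control, and the length slope seen in replicates 2 and 3 was near 0 there.

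CM from senescent MSCs, taken in the same fit, differed from young CM in 7 genes (0.0389% of those tested), all higher with senescent CM. NEDD9, a focal adhesion scaffold, was at 13, 13.3 and 12.9 CPM in senescent CM and at 5.69, 4.77 and 5.17 CPM in young CM (log2 fold change 1.31 ± 0.15, adjusted p = 0.00232), and control had 6.47, 5.75 and 6.37 CPM. SNAI1, a repressor of epithelial genes, was at 48.6, 43.9 and 56 CPM in senescent CM and at 21.3, 18.4 and 23.7 CPM in young CM (1.22 ± 0.18, adjusted p = 0.0212), beside 20.3, 10.5 and 19.6 CPM in control. The transcription factor MAF had 2.62 ± 0.30 (adjusted p = 0.00232) and PCDH1, a protocadherin, 1.18 ± 0.15 (adjusted p = 0.00563). LIPG, the endothelial lipase, had 1.39 ± 0.15 and COL5A1, a collagen V chain, 1.57 ± 0.25; both were chosen after their values were seen. Leaving out 1 library left 0 calls without young CM replicate 3 (1321 genes at an unadjusted p under 0.05), 3 without senescent CM replicate 3, 4 without senescent CM replicate 2, and 5 or 6 in the other cases. In young CM minus control none of these 7 genes passed the threshold, with log2 fold changes between -0.38 for LIPG and 1.1 for MAF.

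None of the 6 genes that passed between young CM and control passed between senescent and young CM. DMBT1 averaged 2.92 ± 1.27 CPM, TNFSF15 24.9 ± 1.85 CPM and APLN 366 ± 28 CPM in senescent CM (SD, n = 3 each). Set against young CM, senescent CM had log2 fold changes of 0.41 ± 0.25 for DMBT1, 0.77 ± 0.21 for TNFSF15, -0.10 ± 0.15 for APLN and -0.58 ± 0.19 for RELN, with adjusted p-values of 0.487, 0.248, 0.783 and 0.356. A p above the threshold does not show that the media act alike. Senescent CM minus control gave 230 genes past the threshold (1.28%), with the same control libraries as young CM minus control. That count was 132, 108 and 63 without control replicate 2, 3 or 4, and 129, 85 and 68 without senescent CM replicate 2, 3 or 4. It was 91 without the block and 84 with all 4 replicates. Beside the young CM values, senescent CM minus control gave 2.74 ± 0.27 for DMBT1, 2.27 ± 0.22 for TNFSF15, 0.85 ± 0.15 for APLN, -2.14 ± 0.19 for RELN, 1.83 ± 0.28 for HES1, -2.28 ± 0.20 for SERPINB2 and -1.36 ± 0.13 for MMP1.

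Young CM and young ECM, 2 products of the same MSCs, differed in 1287 genes (7.14%), of which 525 were higher and 762 lower in young CM. Leaving out 1 library gave 605 calls without young CM replicate 2, 650 without young CM replicate 3, 554 without young ECM replicate 2, 2422 without young ECM replicate 3 and 403 without young ECM replicate 4. Of the 6 genes, 5 passed, and FAM167B did not (0.64 ± 0.23, adjusted p = 0.109). APLN averaged 99.4 ± 10.5 CPM in young ECM and was higher in young CM by a log2 fold change of 1.99 ± 0.15 (adjusted p = 7.83e-06). RELN averaged 7.48 ± 1.40 CPM in young ECM and fell by 1.15 on the log2 scale in young CM (adjusted p = 0.00176). SERPINB2, at 350 ± 43.1 CPM in young ECM, had -3.15 ± 0.21 (adjusted p = 4.89e-06), MMP1 -1.42 ± 0.13 (adjusted p = 2.02e-05), KRT7 2.14 ± 0.18 (adjusted p = 1.40e-05) and EDN1 1.47 ± 0.14 (adjusted p = 2.74e-05). This comparison and the one with control use the same young CM libraries.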

How the data were processed

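Poly(A) RNA was sequenced from directional libraries, per the labels' protocols, which name MSCs as the source of the RNA although the cell type label says endothelial cell. The authors deposited 1 table of whole-number read counts per gene for 27 samples; HISAT2 2.2.1, featureCounts 2.0.1 and GRCh38 are named, per the submitters' processing notes, while these notes and labels state neither a strand setting nor an annotation release. Of 60648 entries, 44 pseudoautosomal Y copies were left out, and 60604 were used. Every column was matched to a sample by its name, and 0 columns were of other samples. Library totals ran from 66320519 to 111512357 counts.

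The counts were fitted with edgeR 4.0.16 (quasi-likelihood F-test, TMM scaling, filterByExpr with a minimum count of 10, Benjamini-Hochberg adjustment, threshold 0.05) on 15 libraries, namely replicates 2 to 4 of control, young ECM, senescent ECM, young CM and senescent CM, with the replicate number as a block; 18015 genes were tested with 8 residual degrees of freedom. The pairing by replicate number was checked only in these same data. Deviations from the group means correlated at 0.447, 0.677 and 0.525 for young CM and control libraries of the same number. For different numbers they correlated at -0.518 to -0.0367, but deviations within a group cancel out, which pulls these values down. CPM values use TMM over all 27 libraries, and ratios within a replicate number add 0.5 CPM. List shares are percentages of the library total, without TMM, and were compared with a 2-sided exact permutation test, which cannot go below 0.10 with 3 against 3. Positions and exonic lengths come from GENCODE 29 (GRCh38), found for 58336 entries.

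Genes were named by rule: every gene past the threshold; the 15 highest and 15 lowest fold changes among protein-coding genes whose mean reached 5 CPM in 1 group, with no overlap and 1 sign in all pairs; in each list the highest and lowest member and up to 3 more with the smallest unadjusted p; and KRT7, MMP1, SERPINB2, EDN1, NEDD9, PCDH1, MAF, TNFSF15, SNAI1, HES1, COL1A1, TERT and PECAM1. Not every gene of the list clause is described, and that selection, like the naming of VWF, was made after values were seen. Of the genes past the threshold between senescent and young CM, 1 is not reported here. The 45 lists (1044 entries, 3 unmatched), like the comparison itself, were chosen with earlier results of these data known. The alternatives were no block, DESeq2 1.42.0 and its size factors, no filter, all 4 replicates, only the groups compared, and each library left out in turn; leaving out 1 replicate number in every group was chosen after seeing the data.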

Additional observations from a re-analysis of the deposited data

Results flagged for a closer look

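Sets of 4 libraries were examined for 18 genes and 8 list shares, each in young CM and in control. In 14 of 52 sets, 1 library stood apart from the other 3 by Dixon's criterion, and it was replicate 1 in every case. Chance would mark about 1 in 20 independent sets, but that rate cannot be set against this count. The values of COL1A1, TERT and the stromal list are why replicate 1 was kept apart. The other genes and lists were chosen on replicates 2 to 4 or with earlier results known, and all sets share the same libraries. Replicate 1 stood above the others for COL1A1, with 4527 CPM in young CM (others 5.52 to 9.44) and 4034 CPM in control (5.50 to 6.18). TERT, which the MSC line carries as a transgene, was at 798 CPM in young CM (1.18 to 2.25) and 633 CPM in control (1.52 to 1.87). NEDD9, a focal adhesion scaffold, was at 39.8 CPM in young CM (4.77 to 5.69) and 42.9 CPM in control (5.75 to 6.47).

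The stromal list took 1.05% of counts in young CM replicate 1 (others 0.0534 to 0.0690) and 1.24% in control replicate 1 (0.0591 to 0.0738). The chemokine and cytokine list took 0.0329% in young CM (0.00675 to 0.0101) and 0.0357% in control (0.00453 to 0.00732). In control alone, FAM167B was at 3.10 CPM (0.585 to 0.812) and HES1 at 18.6 CPM (4.19 to 5.85). In young CM alone, replicate 1 was the lowest library for MMP1, at 1046 CPM (2251 to 2339), and for EDN1, at 53.7 CPM (153 to 162).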

How the results depend on the processing

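For young CM minus control, edgeR called 6 genes with the replicate block and 0 with no replicate block (846 genes with p under 0.05 before adjustment), 0 with all 4 replicates (1297 unadjusted), 340 with no filter, 58 with only the 2 groups fitted and 6 with DESeq2's size factors; DESeq2 called 64 with the block and 33 without it. Leaving out libraries gave 0 to 5 calls, and leaving out replicate 2, 3 or 4 in every group, chosen after seeing the data, gave 2, 1 and 2. For senescent CM minus young CM, 7 calls became 3 without the block, 623 with no filter, 0 with all 4 replicates (1184 unadjusted), 0 with only the 2 groups (1753 unadjusted) and 146 in DESeq2, and 0 to 6 when libraries were left out. For young CM minus young ECM, 1287 calls became 604 without the block, 2231 with no filter and 721 with all 4 replicates, and 204 to 2422 when libraries were left out. For senescent CM minus control, 230 calls became 91 without the block, 531 with no filter, 84 with all 4 replicates and 461 in DESeq2, and 27 to 132 when libraries were left out. The cause of these changes was not tested. The 6 genes kept their sign under all 16 alternatives; DMBT1 was called in 11 of them, RELN in 10, TNFSF15 in 7, FAM167B and DIRC3-AS1 in 6 each and APLN in 5, and without the block each had an adjusted p of 0.185. Over 1709 alternative values of 107 genes, 6 changed sign: with all 4 replicates EGR1 had a log2 fold change of 0.18 and IFI27 -0.14, and with libraries left out IFI27 ranged from -0.25 to 2.14, TERT -0.02 to 0.39 and TIMP2 -0.14 to 0.24. A further 51 values lost a call and 112 gained one, and 89 of 720 list medians moved beyond the spread between replicates. The lowest counts behind the 6 genes were 92 reads in young CM (FAM167B) and 24 in control (DMBT1).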
